A study of Mus musculus with 6 samples.

Results

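The vacuolar H+-ATPase (V-ATPase) and the lysosomal cathepsins were followed here across the cells of the healing mouse enthesis, the attachment of tendon to bone. The group holds 42 of the 32285 genes listed in the count matrices. It was chosen by name: the 26 symbols that begin with Atp6v or Atp6ap, and 16 further symbols, namely Ctsa, Ctsb, Ctsc, Ctsd, Ctse, Ctsf, Ctsh, Ctsl, Ctss, Ctsw, Ctsz, Lamp1, Lamp2, Clcn7, Ostm1 and Tcirg1. By role these are 13 genes of the V1 sector, 10 of the V0 sector (Tcirg1 among them), 3 accessory subunits, 11 cathepsins, the membrane proteins Lamp1 and Lamp2, and the chloride transporter Clcn7 with its partner Ostm1. The remaining symbol, Atp6v1fnb, was taken in by its prefix and is not a V-ATPase subunit. The study compared wild-type C57BL/6 mice with Nlrp3-/- mice, which lack the inflammasome sensor NLRP3 in every cell. All mice underwent rotator cuff tear and repair, and the enthesis was harvested at 7 days postinjury (dpi) for droplet-based single-cell RNA sequencing of 3′ transcript ends. Each genotype is represented by 3 libraries, and tissue was pooled, so a library is not known to be a single animal, and p-values measure the spread between libraries.

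The V-ATPase is a rotary proton pump. Its V1 sector lies in the cytosol and hydrolyses ATP, its V0 sector crosses the membrane and carries the protons, and several subunits are encoded by paralogues that differ between tissues. In lysosomes the pump provides the acid pH at which the cathepsins, a set of cysteine, aspartic and serine proteases, are active. Osteoclasts, the bone-resorbing relatives of macrophages, place the same pump on their ruffled border, the folded membrane that faces bone, and acidify the space outside the cell. The chloride transporter ClC-7 (Clcn7) with its subunit Ostm1 balances the charge, and the secreted protease cathepsin K cuts collagen at that pH. Loss of the a3 subunit (Tcirg1), of ClC-7 or of Ostm1 is a known cause of osteopetrosis, in which bone is not resorbed.

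After removal of droplets like free RNA, of low-quality cells and of the 12340 cells with the highest doublet scores, the 6 libraries held 79605 cells. Of these, 9477 were set aside because they lay in shallow clusters with over 75% of cells from 1 library, and 9012 of them came from Nlrp3-/- replicate 1. The 70128 cells kept numbered 9281 to 14847 per library, with 55233921 to 104452277 unique molecular identifiers (UMIs) per library. They include 1803 cells of unnamed clusters and 175 cells of macrophage clusters mixed with markers of another class. These entered no comparison of cell types. Each pair of libraries shared 25 to 91 cell barcodes. Nlrp3 was at 94.5, 164 and 135 CPM (UMIs per 1000000 UMIs) in the wild-type libraries and at 0 UMIs in each Nlrp3-/- library, where 0 UMIs allow a level of up to 0.0543 CPM by counting error. The genotype tags of 2 of the 3 knockout libraries name other Nlrp genes, whereas their titles name Nlrp3, and the titles were followed. The genotypes also differed in sex: Xist was at 783 to 923 CPM in the Nlrp3-/- libraries and at most 0.102 CPM in the wild-type libraries, and the Y-linked Ddx3y showed the reverse. A difference between genotypes therefore cannot be told apart from a difference between sexes, which bears most directly on the X-linked members Atp6ap1, Atp6ap2 and Lamp2. All 42 members were found in the GENCODE annotation of GRCm38, and Atp6v0a1 alone shares chromosome 11 with Nlrp3, at a distance of 41.5 megabases.

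Osteoclast-like cells numbered 2304, with 257, 427 and 225 cells in wild-type replicates 1 to 3 and 421, 382 and 592 cells in Nlrp3-/- replicates 1 to 3. They were compared with 18292 other macrophages of the same libraries. The cells were grouped without the 42 genes, and the name rested on 10 osteoclast markers, whose summed level was 8910 to 13395 CPM in osteoclast-like cells and 253 to 373 CPM in other macrophages. Acid phosphatase 5 (Acp5) averaged 3128 ± 184 CPM (SD, n = 6 libraries) in the former and 123 ± 24.4 CPM in the latter. The 10 macrophage markers summed to 1836 to 2930 CPM in osteoclast-like cells and 7364 to 10213 CPM in other macrophages, and the 10 neutrophil markers to 345 to 2098 and 1297 to 3428 CPM, with none of either list at 0. Of the 10 osteoclast markers, 2 were at 0 in other macrophages. The part of such foreign RNA in the results was not tested. The osteoclast-like cells fell into 3 clusters, which are called here by their leading genes: a Mmp9 Acp5 cluster of 615 cells, a Nfatc1 Jdp2 cluster of 951 cells and a dividing cluster, led by Birc5 and Top2a, of 738 cells. The osteoclast markers summed to 22975 to 33305, 1521 to 3445 and 2666 to 5561 CPM in these clusters, in that order. The macrophage markers summed to 1282 to 1632, 1766 to 3255 and 2260 to 4698 CPM. In the Nfatc1 Jdp2 and dividing clusters the ranges of the 2 sums thus overlapped.

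Many lysosomal genes carry in their promoters the palindrome that the transcription factors TFEB, TFE3 and MITF recognise, an E-box CACGTG within TCACGTGA. RefSeq promoters on GRCm38.p6, which run from 250 bases before to 50 bases after the transcription start, were at hand for 31 of the 42 genes. TCACGTGA, which reads alike on both strands, occurred in 6 of them (Ctsa, Ctsd, Atp6v0d1, Atp6v1a, Clcn7 and Atp6v0e), or 19.4%, against 1.12% of all 27025 genes with a promoter in that table. The shorter CACGTG, which the longer motif contains, occurred in 10, or 32.3%, against 8.09%. Of the 6 genes, Atp6v1a, Atp6v0e and Clcn7 were higher and Ctsa, Ctsd and Atp6v0d1 lower in osteoclast-like cells than in other macrophages, and the part of the motif was not tested. The windows in which the 8 letters lie wholly before the RefSeq start site used are shown with the motif in capitals. Each window lies within its gene in the GENCODE annotation, where the gene begins further upstream.
Atp6v1a, minus strand, chr16:44139358-44139417: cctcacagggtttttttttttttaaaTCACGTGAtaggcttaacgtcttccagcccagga
Ctsd, minus strand, chr7:142387893-142387952: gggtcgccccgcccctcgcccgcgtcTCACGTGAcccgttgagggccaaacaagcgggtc
Ctsa, plus strand, chr2:164833734-164833772: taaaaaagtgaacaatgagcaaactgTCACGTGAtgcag
A match describes the letters and says nothing of binding.

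Osteoclast-like cells held more V-ATPase RNA and less RNA of the cathepsins of the group than the other macrophages of the same libraries. Of the 33 members that passed the filter on low counts, 32 passed the test (edgeR quasi-likelihood test with library as a term, Benjamini-Hochberg adjusted p over all genes), 16 in each direction. Among all 12583 genes tested, 74.1% passed, 35.4% as higher and 38.7% as lower, so that the share of members passing is to be read against a high background. The direction differed by role. Of 19 V-ATPase subunits tested, 14 were higher and 4 lower, with a median log2 fold change of 0.92, and of 10 cathepsins tested 1 was higher and 9 lower, with a median of -1.72. The 9 lower include Ctse, which passed the filter on low counts through other macrophages alone. The median over all genes was -0.06. The cells were clustered on genes that vary along with the members, so the p-values compare the cell types with the spread between libraries only. How many of all genes show no overlap between the cell types was not counted. Statements of overlap below therefore describe the values of single members only. In what follows, values are CPM, UMIs per 1000000 of that cell type's UMIs, listed in the order wild type replicates 1 to 3 and Nlrp3-/- replicates 1 to 3, and fold changes are osteoclast-like cells over other macrophages. A UMI counts a transcript end once, so CPM values of different genes need no scaling by length.

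**Figure D1:**
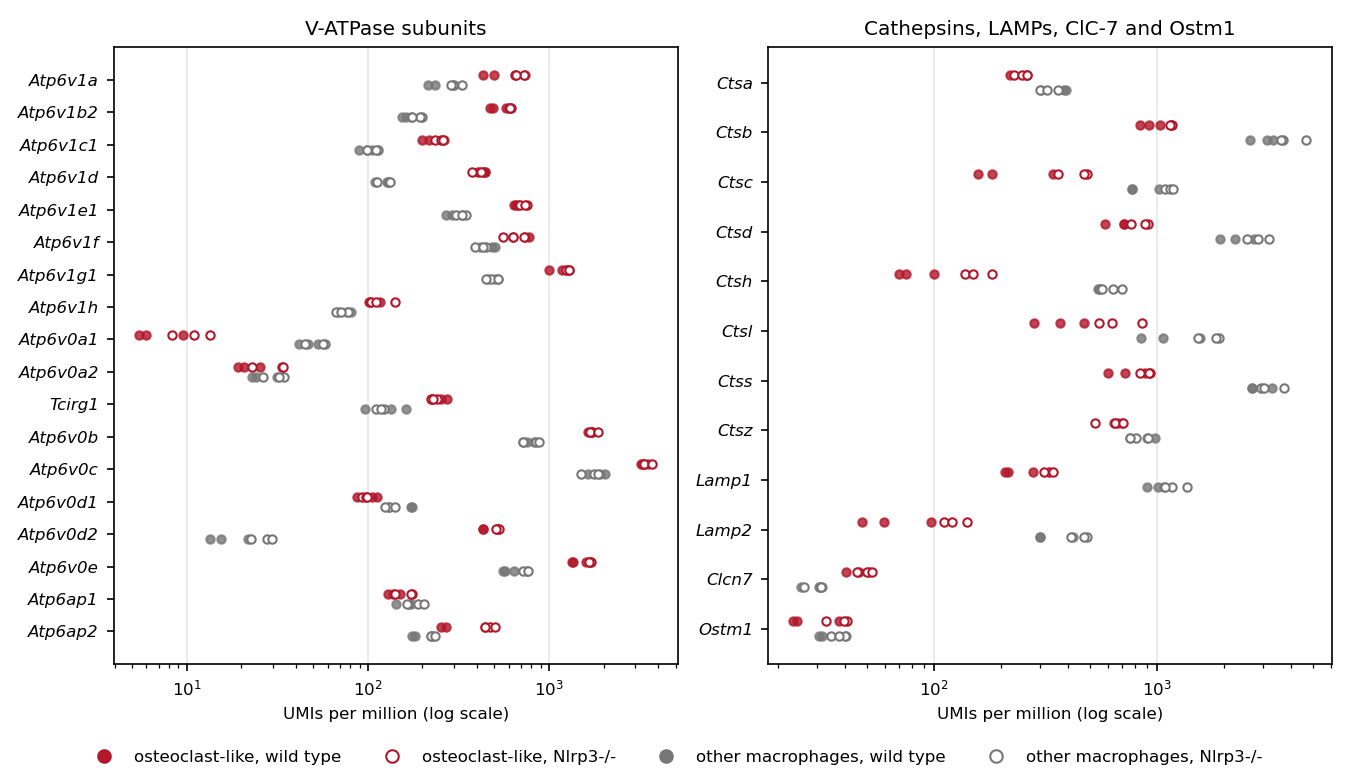
Level of each member with a mean of at least 20 CPM in either cell type, in CPM on a log axis, with 1 point for each of the 6 libraries (red, osteoclast-like cells; grey, other macrophages; filled, wild type; open, Nlrp3-/-). The red points lie to the right of the grey ones for most V-ATPase subunits and to the left for Atp6v0a1, Atp6v0d1, most cathepsins, Lamp1 and Lamp2.

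Of the 9 V1 genes tested, 8 rose and none fell. Atp6v1a, the catalytic subunit A, was at 431, 497, 734, 646, 727 and 655 CPM in osteoclast-like cells and at 216, 234, 301, 297, 286 and 330.4 CPM in other macrophages (log2 fold change 1.09 ± 0.06 (SE), adjusted p = 1.30e-09). Its partner in the hexameric head, subunit B, was encoded almost only by Atp6v1b2, at 490.5, 471, 577, 602, 619.8 and 610.4 CPM in osteoclast-like cells and at 155, 163, 172, 200.2, 194 and 175 CPM in other macrophages (log2 fold change 1.62 ± 0.05 (SE), adjusted p = 1.58e-11). The groups did not overlap for either gene, and both were higher in each of the 6 libraries. Atp6v1d, which forms the central shaft of the rotor, was at 445, 444, 431, 405, 376 and 423 CPM in osteoclast-like cells and at 127, 128, 109, 130.3, 113 and 133 CPM in other macrophages, the largest difference of the sector (log2 fold change 1.72 ± 0.06 (SE), adjusted p = 4.16e-11). The peripheral stalks are built from E and G subunits. Atp6v1e1 was at 639, 659, 674, 691, 754 and 740.2 CPM in osteoclast-like cells and at 270.0, 291, 331, 348, 306 and 329.9 CPM in other macrophages (log2 fold change 1.10 ± 0.06 (SE), adjusted p = 2.01e-09). Atp6v1g1 was at 1179, 997, 1252, 1239, 1292 and 1296 CPM in osteoclast-like cells and at 502, 526, 459, 480.2, 447 and 526 CPM in other macrophages (log2 fold change 1.25 ± 0.06 (SE), adjusted p = 6.87e-10), again without overlap.

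Subunits C and H take part in the regulated joining of V1 and V0. Atp6v1c1 was at 199.96, 219, 264, 234, 254.97 and 259 CPM in osteoclast-like cells and at 89.6, 105, 99.1, 114, 98.4 and 110.4 CPM in other macrophages (log2 fold change 1.16 ± 0.06 (SE), adjusted p = 1.00e-09). Atp6v1h was at 102, 103, 117, 141, 104 and 110.5 CPM in osteoclast-like cells and at 76.4, 80.9, 68.6, 77.5, 66.5 and 71.0 CPM in other macrophages, a smaller difference (log2 fold change 0.56 ± 0.06 (SE), adjusted p = 2.15e-06). Atp6v1f, a small subunit of the rotor, was at 737, 776, 635, 724, 558 and 635 CPM in osteoclast-like cells and at 486, 503, 414, 451, 388 and 433 CPM in other macrophages (log2 fold change 0.55 ± 0.05 (SE), adjusted p = 1.97e-07). For these 3 genes too every osteoclast-like value exceeded every macrophage value. The ninth gene tested, Atp6v1g2, a G paralogue known mainly from neurons, was at 0.243 to 1.45 CPM and 0.484 to 1.34 CPM and did not pass (log2 fold change -0.27 ± 0.36 (SE), adjusted p = 0.500).

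The V0 sector was split, with 5 of 8 genes higher and 3 lower. Atp6v0c, the proteolipid of the c ring through which protons pass, was the most abundant member of the pump, at 3356, 3508, 3223, 3286, 3330 and 3720 CPM in osteoclast-like cells and at 1901, 2026, 1633, 1765, 1510 and 1874 CPM in other macrophages (log2 fold change 0.89 ± 0.05 (SE), adjusted p = 1.18e-09). The related ring subunit Atp6v0b was at 1645, 1734, 1713, 1736, 1689 and 1868 CPM in osteoclast-like cells and at 759, 827, 722, 852, 715 and 882 CPM in other macrophages (log2 fold change 1.08 ± 0.05 (SE), adjusted p = 2.63e-10). Atp6v0e, a small membrane subunit, was at 1358, 1341, 1594, 1695, 1695 and 1661 CPM in osteoclast-like cells and at 559, 575, 642, 761, 721 and 766 CPM in other macrophages (log2 fold change 1.17 ± 0.05 (SE), adjusted p = 1.88e-10). None of the 3 overlapped between the cell types.

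The a subunit forms the proton channel with the c ring and has 4 paralogues. Tcirg1 (a3), the paralogue of the ruffled border, was at 254, 275, 225, 241, 222 and 229.6 CPM in osteoclast-like cells and at 134, 162, 96.8, 122, 110.4 and 118 CPM in other macrophages (log2 fold change 0.92 ± 0.06 (SE), adjusted p = 4.10e-09). Atp6v0a1 (a1) went the other way, at 5.47, 5.96, 9.59, 13.5, 11.01 and 8.26 CPM in osteoclast-like cells and at 41.8, 53.2, 46.5, 58.1, 44.8 and 56.6 CPM in other macrophages (log2 fold change -2.59 ± 0.12 (SE), adjusted p = 4.91e-10), and the groups did not overlap for either. Atp6v0a2 (a2), a paralogue of endosomes and Golgi, was at 19.2, 20.6, 25.5, 22.8, 33.4 and 34.0 CPM in osteoclast-like cells and at 24.0, 22.9, 31.5, 26.5, 34.4 and 32.2 CPM in other macrophages, with overlapping groups (log2 fold change -0.19 ± 0.07 (SE), adjusted p = 0.0308), and it lost the call under 13 of 22 alternative settings. No UMI of Atp6v0a4 (a4), the paralogue of kidney, fell in osteoclast-like cells, which allows a level of up to 0.0969 CPM over the 6 libraries.

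The d subunit joins the rotor to the c ring and has 2 paralogues. Atp6v0d2, the paralogue known from osteoclasts, kidney and dendritic cells, (chromosome 4, 19876841 to 19922605, minus strand in GRCm38) showed the largest difference of all members, at 434, 429.8, 526, 519, 529 and 508 CPM in osteoclast-like cells and at 13.4, 15.4, 21.7, 27.8, 22.7 and 29.6 CPM in other macrophages (log2 fold change 4.48 ± 0.12 (SE), adjusted p = 9.58e-12). Free RNA, read from droplets with at most 100 UMIs, held it at 21.7, 30.2, 22.7, 45.2, 23.3 and 38.6 CPM, which in each library was above the level in other macrophages. In the cluster of macrophages with pro-inflammatory markers it was at 0.200 to 1.32 CPM, in that with anti-inflammatory markers at 18.8 to 37.4 CPM, and in neutrophils at 0.607 to 1.44 CPM. The widely used paralogue Atp6v0d1 was at 106, 112, 87.0, 93.0, 97.9 and 99.3 CPM in osteoclast-like cells and at 174, 176, 130.2, 131, 124 and 141 CPM in other macrophages, lower in osteoclast-like cells in each library (log2 fold change -0.60 ± 0.06 (SE), adjusted p = 4.62e-07).

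Shares of a subunit's UMIs, which do not depend on library scaling, were compared next. Atp6v0d2 held 80.4, 79.3, 85.8, 84.8, 84.4 and 83.7% of the d subunit UMIs in osteoclast-like cells and 7.18, 8.05, 14.3, 17.5, 15.5 and 17.4% in other macrophages, a mean difference of 69.7 percentage points. Tcirg1 held 91.2, 91.2, 86.5, 86.9, 83.3 and 84.4% of the a subunit UMIs in osteoclast-like cells and 67.1, 68.0, 55.4, 59.1, 58.2 and 57.1% in other macrophages, a mean difference of 26.4 points. Neither share overlapped between the cell types. For both, the exact two-sided sign-flip permutation test over 6 libraries gave p = 0.03125, the smallest that 6 pairs allow, and an adjusted p of 0.0729 over the 7 subunits tested, so the threshold of 0.05 was not passed. Subunits B, C, E, G and e were each drawn from 1 paralogue (Atp6v1b2, Atp6v1c1, Atp6v1e1, Atp6v1g1 and Atp6v0e) for at least 99.7% of UMIs in every library of both cell types. Of these, only the Atp6v1g1 share also reached p = 0.03125 in that exact test, with a mean difference of 0.132 points.

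**Figure D2:**
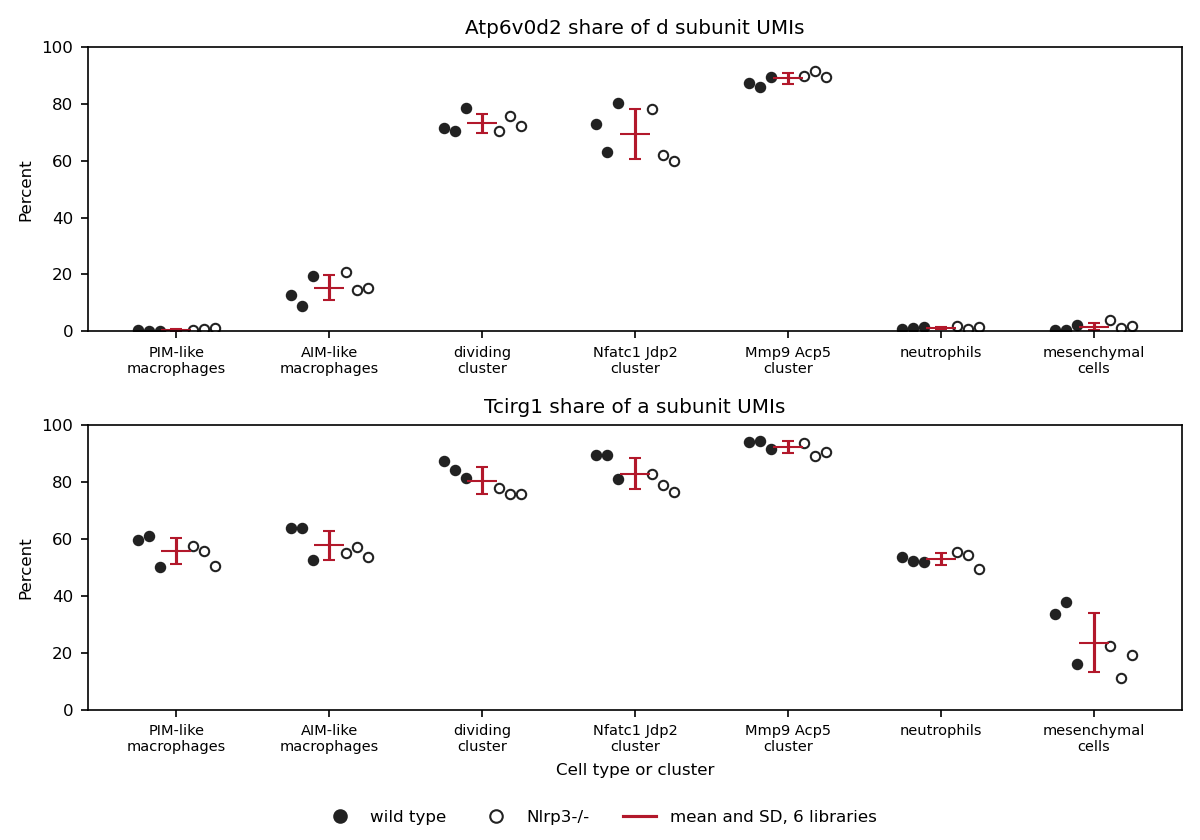
Share of d subunit UMIs held by Atp6v0d2 (top) and of a subunit UMIs held by Tcirg1 (bottom), in percent, for each library (points) in macrophage and osteoclast-like clusters, neutrophils and mesenchymal cells, with the mean and SD over 6 libraries in red. PIM-like and AIM-like are macrophage clusters with pro-inflammatory and anti-inflammatory markers. The Atp6v0d2 share is at or above 60.0% in the 3 osteoclast-like clusters and at or below 20.9% in the others shown.

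Across cell types, the Atp6v0d2 share averaged 0.578% ± 0.409 (SD, n = 6) in macrophages with pro-inflammatory markers, 15.3% ± 4.41 in those with anti-inflammatory markers, 1.23% ± 0.444 in neutrophils and 1.66% ± 1.26 in mesenchymal cells. Within osteoclast-like cells it was lowest in the Nfatc1 Jdp2 cluster, at 69.5% ± 8.81, intermediate in the dividing cluster, at 73.1% ± 3.30, and highest in the Mmp9 Acp5 cluster, at 89.0% ± 2.00, although the values of the first 2 overlapped. The Tcirg1 share was above that of other macrophages in all 3 clusters. It was 80.5% ± 4.77 in the dividing cluster, 83.0% ± 5.44 in the Nfatc1 Jdp2 cluster and 92.3% ± 2.19 in the Mmp9 Acp5 cluster. The Tcirg1 share was 52.8% ± 2.13 in neutrophils and 23.5% ± 10.4 in mesenchymal cells.

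The accessory subunits did not move together. Atp6ap2, the prorenin receptor, which takes part in assembly of the pump, was at 272, 252, 443, 472, 505 and 443 CPM in osteoclast-like cells and at 175, 181, 223, 226, 223 and 235 CPM in other macrophages (log2 fold change 0.83 ± 0.07 (SE), adjusted p = 2.39e-07), higher in each library. Atp6ap1 was at 129, 139, 151, 141, 175 and 174 CPM in osteoclast-like cells and at 144, 169.7, 174, 165, 188 and 205 CPM in other macrophages, with overlapping groups and a small difference in the other direction (log2 fold change -0.25 ± 0.05 (SE), adjusted p = 6.67e-04). With the Mmp9 Acp5 cluster in place of all osteoclast-like cells, that difference turned to 0.26. Atp6ap1l had no UMI in osteoclast-like cells.

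The cathepsins of the group that were tested fell in osteoclast-like cells, with Ctsf as the exception. The cysteine proteases cathepsin B and cathepsin L and the aspartic protease cathepsin D are broad degraders of lysosomal protein. Ctsb was at 839, 919.9, 1031, 1159, 1169 and 1138 CPM in osteoclast-like cells and at 2621, 3296, 3119, 3661, 3590 and 4672 CPM in other macrophages (log2 fold change -1.78 ± 0.06 (SE), adjusted p = 4.34e-11). Ctsd was at 585, 714, 712, 909, 879 and 764 CPM in osteoclast-like cells and at 1924, 2716, 2231, 2848, 2522 and 3193 CPM in other macrophages (log2 fold change -1.80 ± 0.07 (SE), adjusted p = 7.10e-11). Ctsl was at 282, 367, 472, 856, 550.4 and 627 CPM in osteoclast-like cells and at 847, 1061, 1566, 1904, 1521 and 1841 CPM in other macrophages (log2 fold change -1.55 ± 0.07 (SE), adjusted p = 1.90e-10). Ctsb and Ctsd did not overlap between the cell types, whereas the highest Ctsl value of osteoclast-like cells, in Nlrp3-/- replicate 1, exceeded the lowest value of other macrophages, in wild type replicate 1.

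Cathepsin S trims the invariant chain during antigen presentation, cathepsin C activates granule serine proteases, and cathepsin H is an aminopeptidase. Ctss was at 719, 601, 881, 842, 926 and 919 CPM in osteoclast-like cells and at 2654, 2670, 3273, 2929, 3031 and 3713 CPM in other macrophages (log2 fold change -1.96 ± 0.06 (SE), adjusted p = 1.05e-11). Ctsc was at 181, 158, 340.1, 362, 486 and 472 CPM in osteoclast-like cells and at 772, 771, 1025, 1086, 1141 and 1185 CPM in other macrophages (log2 fold change -1.73 ± 0.11 (SE), adjusted p = 5.71e-09). Ctsh was at 74.9, 69.9, 100.4, 138, 182 and 149 CPM in osteoclast-like cells and at 556, 541, 549, 567, 635 and 698 CPM in other macrophages, the largest fall among the cathepsins (log2 fold change -2.43 ± 0.12 (SE), adjusted p = 7.32e-10). The groups did not overlap for these 3 genes.

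Smaller differences were found for cathepsin A, a serine carboxypeptidase that also protects other lysosomal enzymes, and for cathepsin Z, a carboxypeptidase. Ctsa was at 261, 259, 219, 229, 247 and 261 CPM in osteoclast-like cells and at 381, 392, 302, 298, 319.8 and 361 CPM in other macrophages (log2 fold change -0.52 ± 0.05 (SE), adjusted p = 3.92e-07). Ctsz was at 644, 699.7, 668, 525, 651 and 700.2 CPM in osteoclast-like cells and at 899, 978, 757, 804, 754 and 909 CPM in other macrophages (log2 fold change -0.44 ± 0.06 (SE), adjusted p = 1.30e-05). Both were lower in each of the 6 libraries, without overlap. The low-abundance Ctsf, at 3.54 to 10.2 against 2.34 to 6.33 CPM, was the single cathepsin of the group to rise (log2 fold change 0.75 ± 0.18 (SE), adjusted p = 0.00191), and the difference turned to -0.32 when macrophages with anti-inflammatory markers alone were the comparison. Ctse, an aspartic protease of the endosome, was at 0 to 1.40 against 0.647 to 2.27 CPM with overlapping groups. It passed the filter on low counts through other macrophages alone, so no fold is given, though it is counted among the lower ones. Cathepsin K, which is not a member of the group, stood opposite to these genes at 3664, 4107, 5542, 5828, 6406 and 6048 CPM in osteoclast-like cells and 59.6, 66.3, 123, 112, 93.6 and 171 CPM in other macrophages. It was among the markers that named the cells, so this is a description without a test.

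Lamp1 and Lamp2, the heavily glycosylated proteins that line the lysosomal membrane, fell further than most cathepsins. Lamp1 was at 214, 208, 278, 327, 313 and 341 CPM in osteoclast-like cells and at 902, 1007, 1073, 1161, 1087 and 1360 CPM in other macrophages (log2 fold change -2.04 ± 0.06 (SE), adjusted p = 1.06e-11). Lamp2 was at 47.5, 59.4, 96.9, 111, 140.3 and 120.2 CPM in osteoclast-like cells and at 298, 298, 420.1, 413, 484 and 471 CPM in other macrophages (log2 fold change -2.16 ± 0.09 (SE), adjusted p = 1.15e-10). No value overlapped between the cell types. Clcn7 was at 40.3, 45.9, 51.2, 49.9, 52.6 and 45.1 CPM in osteoclast-like cells and at 25.3, 30.5, 31.5, 30.7, 26.2 and 31.0 CPM in other macrophages, higher in each library (log2 fold change 0.64 ± 0.07 (SE), adjusted p = 2.01e-06). Its partner Ostm1 was at 23.4, 24.3, 37.3, 40.9, 39.4 and 32.7 CPM in osteoclast-like cells and at 31.3, 30.5, 40.5, 34.4, 39.7 and 37.5 CPM in other macrophages, with overlapping groups (log2 fold change -0.19 ± 0.08 (SE), adjusted p = 0.0412), and this call was lost under 10 of 22 alternatives. In the Mmp9 Acp5 cluster alone, Ostm1 was higher than in other macrophages by 0.57 on the log2 scale (adjusted p = 3.77e-05).

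As a share of all UMIs, the 26 V-ATPase genes took 1.18, 1.20, 1.27, 1.29, 1.30 and 1.35% in osteoclast-like cells and 0.585, 0.624, 0.567, 0.623, 0.559 and 0.645% in other macrophages. The 11 cathepsins took 0.359, 0.379, 0.443, 0.503, 0.510 and 0.504% and 1.07, 1.24, 1.28, 1.41, 1.35 and 1.66%. Neither pair of ranges overlapped. There were 2.54 to 3.28 V-ATPase UMIs for each UMI of these 11 cathepsins in osteoclast-like cells and 0.389 to 0.549 in other macrophages. By cluster the ratio was 5.64 to 6.71 (Mmp9 Acp5), 1.39 to 2.27 (Nfatc1 Jdp2) and 1.13 to 2.48 (dividing). A high ratio was not particular to osteoclast-like cells. It was 1.92 to 4.14 in neutrophils, 1.92 to 4.28 in B cells and 2.67 to 3.75 in mast cells and basophils. Cathepsin K, abundant in osteoclast-like cells, is not among the 11, and counting it would lower the ratio there. Among other macrophages, the cluster with anti-inflammatory markers held the largest share for these 11 genes of all types and clusters measured, 1.84% ± 0.176 (SD, n = 6). The cluster with pro-inflammatory markers held 0.546% ± 0.0228, at 0.513 to 0.575%, close to the 0.359 to 0.510% of osteoclast-like cells. The Nfatc1 Jdp2 cluster, at 0.383 to 0.575%, and the dividing cluster, at 0.357 to 0.701%, overlapped with it. Members were not tested against the pro-inflammatory cluster. The V-ATPase shares of the anti-inflammatory and pro-inflammatory clusters, 0.665% ± 0.0225 and 0.456% ± 0.0256, lay closer to each other.

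**Figure D3:**
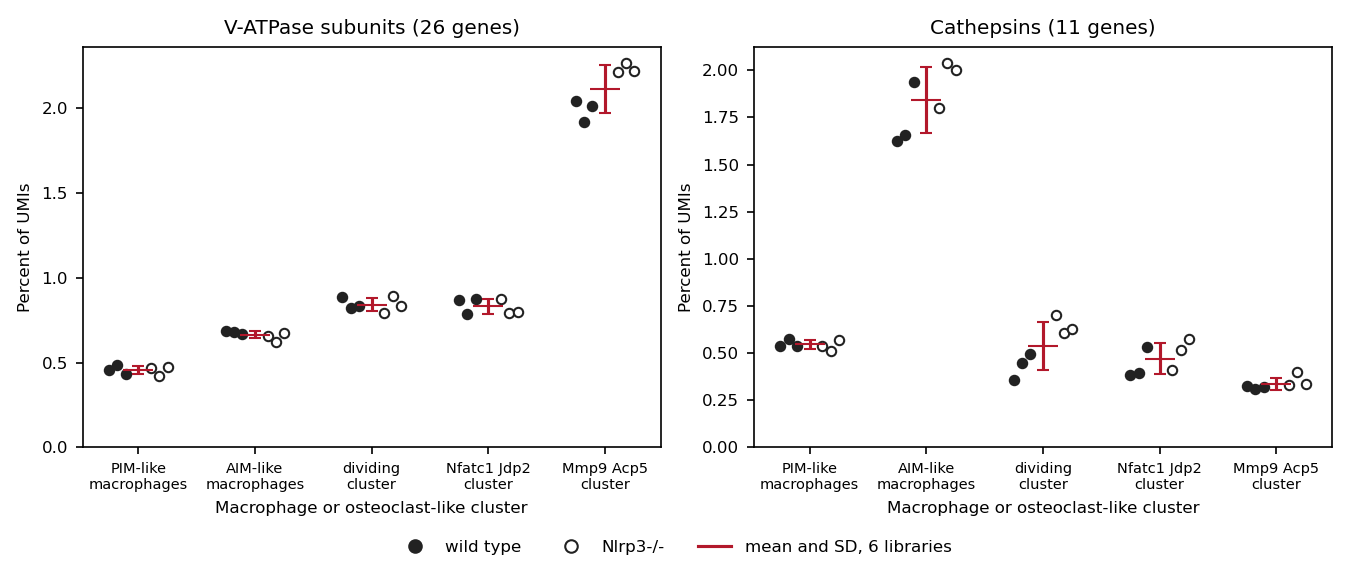
Percent of all UMIs held by the 26 V-ATPase genes (left) and the 11 cathepsins (right) in each library, for PIM-like and AIM-like macrophages (pro-inflammatory and anti-inflammatory markers) and the 3 osteoclast-like clusters, with the mean and SD over 6 libraries in red. The V-ATPase share is highest in the Mmp9 Acp5 cluster and the share of the 11 cathepsins, which leave out cathepsin K, in AIM-like macrophages.

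Within osteoclast-like cells the V-ATPase level was highest in the Mmp9 Acp5 cluster. Since clusters were drawn from the same cells, these values are given as a description without a test. V-ATPase genes took 2.11% ± 0.140 of UMIs there, 0.832% ± 0.0450 in the Nfatc1 Jdp2 cluster and 0.842% ± 0.0385 in the dividing cluster, and the first did not overlap with the others. Atp6v0d2 averaged 1028 ± 117, 202 ± 52.3 and 238 ± 37.4 CPM in the 3 clusters in that order. Clcn7 averaged 93.2 ± 10.1, 19.97 ± 5.39 and 28.4 ± 5.44 CPM, so that the Mmp9 Acp5 cluster alone lay above, in every library, the 29.2 ± 2.71 CPM of other macrophages. Ostm1 averaged 55.3 ± 13.3, 21.5 ± 7.26 and 21.8 ± 4.33 CPM, again highest in the Mmp9 Acp5 cluster.

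The cathepsins did not vary uniformly among the clusters. Ctsc was at 37.1 ± 12.7 CPM in the Mmp9 Acp5 cluster, against 543 ± 257 CPM in the Nfatc1 Jdp2 cluster and 440.3 ± 199 CPM in the dividing cluster. Ctss averaged 294 ± 61.0, 1196 ± 225 and 988 ± 220.0 CPM in the same order, and Lamp1 96.0 ± 27.0, 335 ± 93.0 and 412 ± 77.0 CPM. For these 3 genes every value of the Mmp9 Acp5 cluster lay below every value of the others. Ctsb, at 854 ± 96.1, 893 ± 139 and 1348 ± 272 CPM, and Ctsd, at 684 ± 88.8, 575 ± 87.0 and 998 ± 248 CPM, overlapped between the Mmp9 Acp5 and Nfatc1 Jdp2 clusters. Ctsa was higher in the Mmp9 Acp5 cluster, at 339 ± 39.9 CPM against 204 ± 28.0 CPM, and there overlapped with the 342 ± 40.8 CPM of other macrophages. The macrophage gene C1qa averaged 27.8 ± 14.3, 410.2 ± 127 and 837 ± 315 CPM in the 3 clusters, beside which the cathepsin values are to be read, and its part in them was not tested.

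Set against neutrophils and mesenchymal cells, osteoclast-like cells had higher levels of most V-ATPase genes and also of most cathepsins. Compared with neutrophils, 24 of 33 members tested were higher and 6 lower (all genes, 78.3% in either direction, 37.9% higher and 40.4% lower), and 15 of 19 V-ATPase genes and 7 of 10 cathepsins were among the higher ones. The 33 include 9 V1 genes and 10 cathepsins, whereas 8 and 9 passed the filter on low counts in osteoclast-like cells alone. The lower ones can thus include members that passed it through neutrophils alone. The largest of these cathepsin differences was that of Ctss, at 601 to 926 CPM against 12.8 to 70.3 CPM (log2 fold change 4.03 ± 0.32 (SE), adjusted p = 1.39e-06). Compared with mesenchymal cells, 24 of 36 members were higher and 9 lower (all genes, 79.2% in either direction, 33.6% and 45.6%), with 16 of 22 V-ATPase genes and 6 of 10 cathepsins among the higher. Of the 9 lower, Atp6v0a4, Atp6v1c2 and Atp6ap1l had 0 UMIs in osteoclast-like cells and passed the filter through mesenchymal cells alone, where none averaged over 2.33 CPM. Other macrophages compared with mesenchymal cells had 30 of 37 higher and 6 lower (all genes, 82.0% in either direction, 39.8% and 42.2%), 9 of 11 cathepsins among the higher. The same 3 genes, with at most 3 UMIs each in other macrophages, were among the lower. Atp6v0d2 was at 0.393 to 2.86 CPM in mesenchymal cells, below its level in free RNA. Lamp2 was lower in osteoclast-like cells than in mesenchymal cells, at 47.5 to 140.3 against 216 to 409 CPM (log2 fold change -1.82 ± 0.10 (SE), adjusted p = 7.81e-08), and lower than in neutrophils, at 199 to 284 CPM (log2 fold change -2.20 ± 0.20 (SE), adjusted p = 3.15e-06).

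**Figure D4:**
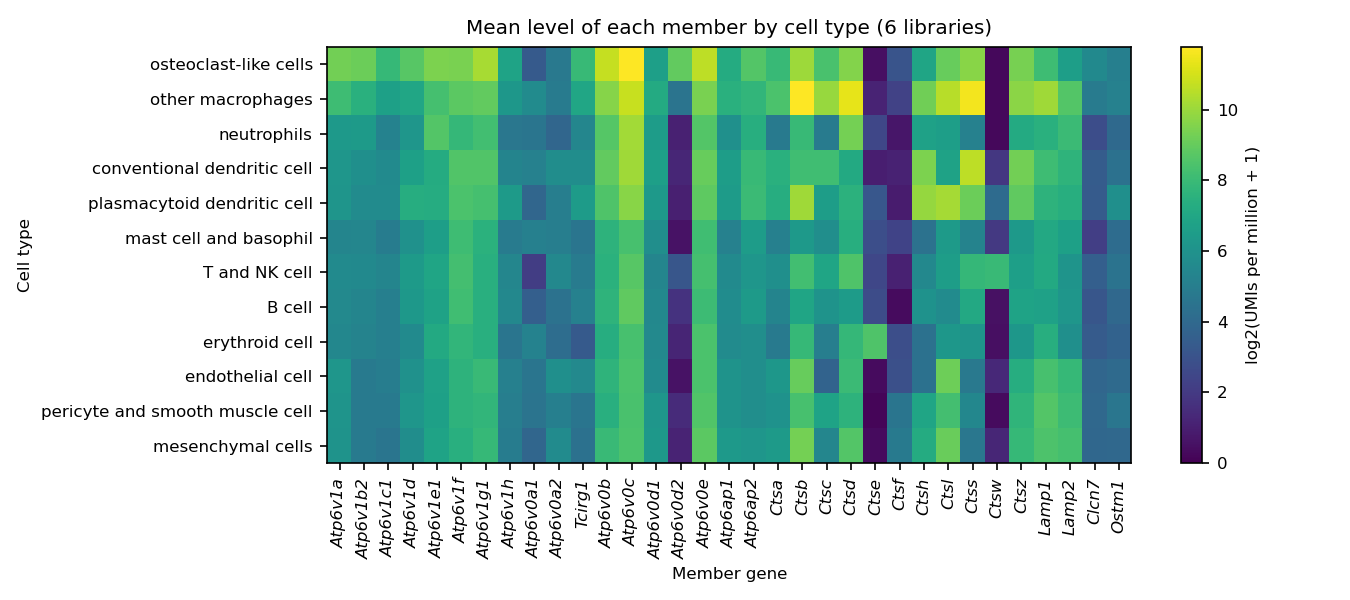
Mean level over 6 libraries of each member that reached 20 CPM in some cell type, as log2(CPM + 1), for 12 cell types. Osteoclast-like cells carry the highest level of most V-ATPase subunits and other macrophages that of most cathepsins, while Ctsw is brightest in T and NK cells and Ctse in erythroid cells.

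Over 12 cell types, osteoclast-like cells had the highest mean of 15 members: the V1 genes Atp6v1a, Atp6v1b2, Atp6v1c1, Atp6v1d, Atp6v1e1, Atp6v1f, Atp6v1g1 and Atp6v1h, the V0 genes Atp6v0b, Atp6v0c, Atp6v0d2, Atp6v0e and Tcirg1, and Atp6ap2 and Clcn7. For 13 of these the osteoclast-like value exceeded that of the next type in each library. For Atp6v1h and Atp6ap2 it did so in 5 of 6, the next type being plasmacytoid dendritic cells, at 83.4 ± 15.5 and 259.6 ± 11.8 CPM. Other macrophages had the highest mean of 12 members, among them Ctsa, Ctsb, Ctsc, Ctsd, Ctsl, Ctss, Ctsz, Lamp1 and Lamp2. This order was worked out for the members alone and not over all genes, so these counts have no background and describe the members only. For Ctsl the next type, plasmacytoid dendritic cells at 1252, 1196, 1235, 1237, 1314 and 851 CPM, lay within the spread of other macrophages.

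Some cathepsins were highest in other cell types. Ctsw, a protease of cytotoxic lymphocytes, was at 283, 324, 263, 162, 251 and 228 CPM in T and NK cells and at most 28.5 CPM in any library of plasmacytoid dendritic cells, the next type. Ctse was at 295, 208, 293, 187, 545 and 659 CPM in erythroid cells and averaged 8.07 CPM in the next type. Ctsh was highest in plasmacytoid dendritic cells, at 1086, 1111, 965, 988, 908 and 728 CPM, followed by conventional dendritic cells, at 605, 719.7, 661, 665, 765 and 812 CPM, and the order of these types turned in 1 library. Ctsf was highest in mesenchymal cells, at 18.5, 19.5, 29.2, 27.5, 32.7 and 40.8 CPM, which overlapped with pericytes and smooth muscle cells. Ctss averaged 1548 ± 137 CPM in conventional dendritic cells, the next type after other macrophages. The levels of these genes in free RNA, from which droplets of any cell type can take up UMIs, averaged 4.65 CPM for Ctsw, 6.95 CPM for Ctse and 239 CPM for Ctsh.

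The members left untested were low in these cells. Atp6v1b1, Atp6v1c2, Atp6v1e2, Atp6v1g3, Atp6v0a4, Atp6v0e2, Atp6ap1l and Atp6v1fnb did not pass the filter in the comparison with other macrophages, and their highest mean in any of 12 cell types was 2.33 CPM, that of Atp6v0a4 in mesenchymal cells. Ctsw, the last of the 9 untested members, had 6 UMIs in osteoclast-like cells. No UMI of Atp6v1c2, Atp6v1g3, Atp6v0a4 or Atp6ap1l was counted in 30965797 UMIs of osteoclast-like cells. The D630045J12Rik gene overlaps Atp6v0a4 on the same strand, so that UMIs of these genes could be exchanged, and the 3 other members without a UMI have no such neighbour.

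Genes of the wider pathway were read from 7 lists, and their counts in the comparison with other macrophages stand beside 74.1% of all genes called, 35.4% higher and 38.7% lower, and an all-gene median log2 fold change of -0.06. Of 9 genes tested for assembly and regulation of the V-ATPase, 4 were higher and 4 lower (list median 0.04). The largest differences were the falls of Dmxl2, a rabconnectin (12.8 ± 6.53 against 48.2 ± 11.5 CPM, log2 fold change -1.99 ± 0.13), and of Ncoa7 (-1.11 ± 0.13), and the rise of Tmem199, an assembly factor (0.88 ± 0.08). Of 10 genes of lysosomal transcription and signalling, 1 was higher and 7 lower (8 of 10 called, against 74.1% of all genes; median -0.65). The one that rose was Mitf (95.2 ± 20.3 against 34.4 ± 8.61 CPM, log2 fold change 1.42 ± 0.09), a transcription factor of osteoclasts. Among those that fell were Flcn (-0.93 ± 0.10) and Tfe3 (-0.89 ± 0.06), and Tfeb also fell (11.98 ± 2.13 against 18.4 ± 2.23 CPM, log2 fold change -0.67 ± 0.10).

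Of 21 other lysosomal hydrolases, 6 were higher and 12 lower, beside 35.4% and 38.7% of all genes (list median -0.37). Arsb, arylsulfatase B, which removes sulfate from glycosaminoglycans, rose from 11.2 to 158 CPM (log2 fold change 3.77 ± 0.08), whereas Lipa, lysosomal acid lipase (-2.07 ± 0.10), and Lgmn, legumain, a protease that processes cathepsins (-1.95 ± 0.09), fell. Of 15 other lysosomal membrane and cargo proteins, 3 were higher and 9 lower (median -0.78). Scarb2 (-1.94 ± 0.07) and Psap, prosaposin (-1.74 ± 0.06), fell, as did Sort1, a sorting receptor. The fold of Sort1 is not given, since only 14 of the 15 passed the filter on low counts in osteoclast-like cells alone. Gnptab (1.44 ± 0.07), Igf2r (0.79 ± 0.08) and M6pr (0.43 ± 0.05), named after their values were seen, rose. Of 6 cysteine cathepsin inhibitors tested, 2 were higher and 2 lower. Cst7 rose (13.6 ± 3.52 against 3.05 ± 0.581 CPM, log2 fold change 2.07 ± 0.16), as did the abundant Cstb, a cytosolic inhibitor (1935 ± 288 against 1568 ± 391 CPM, log2 fold change 0.28 ± 0.06), and the abundant Cst3 fell slightly (1658 ± 254 against 2035 ± 287 CPM, log2 fold change -0.35 ± 0.05). The other one lower, Stfa3, passed the filter through other macrophages alone, at 0.189 to 15.2 CPM against 0 to 0.243 CPM, so no fold is given. Of 12 osteoclast genes of acid production and the ruffled border, 8 were higher and 3 lower. The sodium-proton exchanger Slc9b2 (5.88 ± 0.16) and carbonic anhydrase Car2 (5.30 ± 0.16) led the rise. Rab27a was among the lower ones. Its fold is not given, since only 11 of the 12 passed the filter on low counts in osteoclast-like cells alone. The remaining cathepsins Ctsg and Ctso fell (-0.83 ± 0.17 and -0.64 ± 0.10). Ctsk, Slc9b2 and Arsb were among the leading genes of the osteoclast-like clusters, so their differences describe those clusters.

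Few members passed the test between the genotypes. In osteoclast-like cells, 1 of 31 members tested passed, Ctsh, against 0.649% of all 10325 genes (edgeR quasi-likelihood test, 3 libraries against 3), and 7 of 31 members had an unadjusted p under 0.05, against 22.1% of all genes. Ctsh was at 74.9, 69.9 and 100.4 CPM in wild type and 138, 182 and 149 CPM in Nlrp3-/- (log2 fold change, Nlrp3-/- minus wild type, 0.76 ± 0.14 (SE), adjusted p = 0.0347). All Nlrp3-/- values were above all wild-type values. How many of all genes show no overlap between the genotypes was not counted, so such statements describe single members only. The call did not hold when any library other than wild type replicate 3 was left out, with adjusted p of 0.173 without wild type replicate 1, 0.187 without wild type replicate 2, and 0.0777, 0.179 and 0.118 without Nlrp3-/- replicates 1, 2 and 3. Without wild type replicate 3, Ctsh passed (adjusted p = 0.00113) and 12 members in all were called, among 2653 genes (24.9% of those tested). The Ctsh difference was 0.28 (adjusted p = 0.260) when the 42 genes took part in the grouping of cells. It was also lost with the replicate block (adjusted p = 0.0798), without the test against free RNA (0.0592), with doublets kept (0.0525), with a minimum of 1000 UMIs (0.0663) and at Leiden resolution 2.0 (0.121).

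Next to Ctsh stood 3 members that missed the threshold by edgeR but were called, with Ctsh, by DESeq2, which called 4 of 31 members against 4.51% of all genes. Its adjusted p was 0.00712 for Ctsc, 0.0149 for Lamp2 and 0.0156 for Ctsl, and the values that follow are those of edgeR. Ctsc was at 181, 158, 340.1, 362, 486 and 472 CPM (log2 difference 0.80 ± 0.21, adjusted p = 0.0989), with all Nlrp3-/- values above all wild-type values. Lamp2 was at 47.5, 59.4, 96.9, 111, 140.3 and 120.2 CPM (log2 difference 0.70 ± 0.18, adjusted p = 0.0979), also without overlap between the genotypes, and is X-linked. Ctsl was at 282, 367, 472, 856, 550.4 and 627 CPM (log2 difference 0.69 ± 0.20, adjusted p = 0.112), likewise without overlap. The V-ATPase genes had a median log2 difference of -0.03, the 9 cathepsins tested one of 0.13, and all genes one of 0.02. Atp6v0d2 was at 434, 429.8, 526, 519, 529 and 508 CPM in osteoclast-like cells (log2 difference -0.02 ± 0.12, adjusted p = 0.940), and Tcirg1 at 254, 275, 225, 241, 222 and 229.6 CPM (log2 difference -0.32 ± 0.15, adjusted p = 0.230), with overlapping genotypes for both. By cluster, 2 members passed in the dividing cluster (background 1.64%), Ctsh (log2 difference 0.90 ± 0.14, adjusted p = 0.00887) and Lamp2 (log2 difference 0.81 ± 0.17, adjusted p = 0.0326). In that cluster 11 of 30 members had an unadjusted p under 0.05, against 18.5% of all genes. The summed macrophage markers also stood apart there, at 2260 to 3151 CPM in wild type and 4062 to 4698 CPM in Nlrp3-/-, as did the anti-inflammatory macrophage markers, at 1447 to 2011 CPM in wild type and 2934 to 3566 CPM in Nlrp3-/-, and their part in these calls was not tested. None of 31 passed in the Nfatc1 Jdp2 cluster (background 0.65%), where 6 had an unadjusted p under 0.05 against 19.2% of all genes, and none of 30 in the Mmp9 Acp5 cluster (background 0.742%), where 4 had an unadjusted p under 0.05 against 17.4% of all genes.

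**Figure D5:**
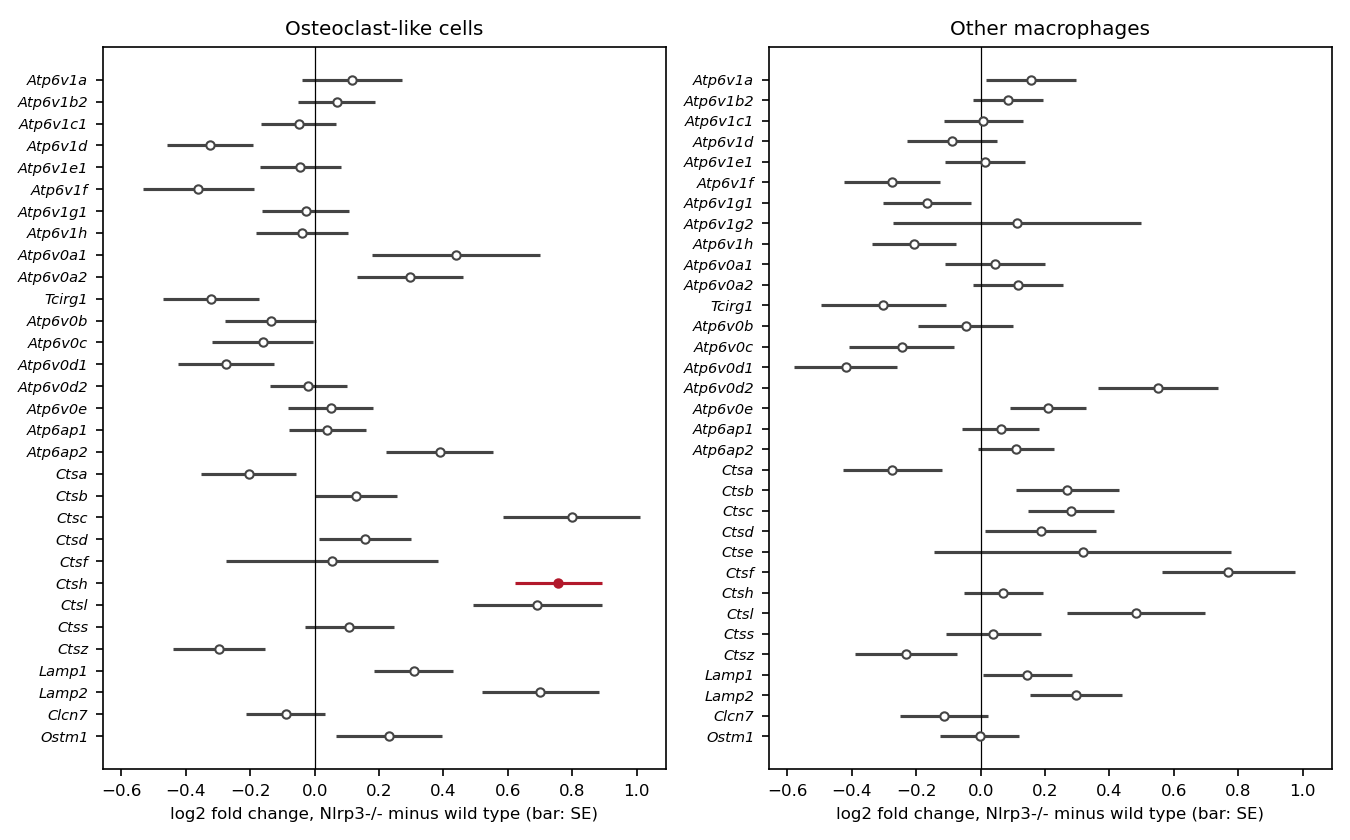
Log2 fold change of each member tested, Nlrp3-/- minus wild type, with its standard error (bars), in osteoclast-like cells (left) and other macrophages (right). The filled red point, Ctsh in osteoclast-like cells, is the single member that passed the adjusted threshold.

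In other macrophages none of 33 members passed by edgeR (background 0.459%) and none by DESeq2 (background 3.63%), and 3 had an unadjusted p under 0.05, against 18.5% of all genes. Ctsh differed by 0.07 ± 0.12 (adjusted p = 0.780) there, Atp6v0d2 by 0.55 ± 0.19 (adjusted p = 0.202) and Atp6v0d1 by -0.42 ± 0.16 (adjusted p = 0.227). Without wild type replicate 3, 7 members were called in other macrophages, where 15.7% of all genes were, and 1 in mesenchymal cells, where 3.48% were. In neutrophils (background 0.341%) and in mesenchymal cells (background 0.108%) no member passed by edgeR. At an unadjusted p under 0.05 there were 3 members in neutrophils, against 15% of all genes, and 2 in mesenchymal cells, against 12.3%. DESeq2 called 1 member in neutrophils, against 2.18% of all genes, and 0 in mesenchymal cells, against 1.81%. Scaling by total UMIs in place of TMM brought the median of all genes from 0.02 to 0.21 in osteoclast-like cells, from 0.01 to 0.14 in other macrophages and from 0.02 to 0.33 in neutrophils, without a further member being called in osteoclast-like cells. In the remaining types and clusters no member passed by edgeR either. The share of all genes called was 0.475% in macrophages with pro-inflammatory markers, 0.726% in macrophages with anti-inflammatory markers, 1.24% in conventional dendritic cells, 0.661% in plasmacytoid dendritic cells, 0.472% in T and NK cells, 0.267% in B cells, 0.378% in mast cells and basophils, 0.201% in erythroid cells, 0.464% in endothelial cells and 0.385% in pericytes and smooth muscle cells. At an unadjusted p under 0.05 there were 3 of 30 members in macrophages with pro-inflammatory markers (all genes, 14.4%), 2 of 31 members in macrophages with anti-inflammatory markers (all genes, 18.8%), 2 of 29 members in conventional dendritic cells (all genes, 19.9%), 3 of 27 members in plasmacytoid dendritic cells (all genes, 13.0%), 3 of 28 members in T and NK cells (all genes, 10.8%), 2 of 30 members in B cells (all genes, 8.41%), 1 of 28 members in mast cells and basophils (all genes, 10.1%), 10 of 30 members in erythroid cells (all genes, 23.4%), 4 of 31 members in endothelial cells (all genes, 21.0%) and 4 of 30 members in pericytes and smooth muscle cells (all genes, 15.7%). DESeq2 called 3 members in erythroid cells, against 4.99% of all genes, 2 in endothelial cells, against 3.32%, and none in the others. Those in erythroid cells (Ctsb, Ctsd and Ctsh) and in endothelial cells (Ctsc and Ctss) were higher in Nlrp3-/-, whereas the one in neutrophils, Ctsd, was lower. Erythroid cells numbered 110, 38, 69, 746, 245 and 46 in the 6 libraries, and the part of free RNA in these calls was not tested. The difference between osteoclast-like cells and other macrophages was also tested for dependence on genotype, and none of 33 members passed (edgeR interaction test, background 0.0477%). There were 7 members at an unadjusted p under 0.05, against 9.12% of all genes, and DESeq2 called 1, against 0.262%. The interaction for Ctsh was 0.68 ± 0.14 (adjusted p = 0.116).

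In osteoclast-like cells the shares of Atp6v0d2 and Tcirg1 overlapped between the genotypes. The Atp6v0d2 share differed by 2.44 percentage points (Nlrp3-/- minus wild type, exact permutation p = 0.4) and the Tcirg1 share by -4.73 points (exact permutation p = 0.200), in a design of 3 against 3 whose smallest two-sided p is 0.1. By cluster, the Tcirg1 share did not overlap in the dividing cluster, at 81.6 to 87.5% in wild type and 75.8 to 78.0% in Nlrp3-/-. Nor did the Atp6v0d2 share in the Mmp9 Acp5 cluster, at 86.0 to 89.4% and 89.5 to 91.7%. The other cluster shares of these genes overlapped, and none was tested. In other macrophages the Atp6v0d2 share did not overlap, with a difference of 6.97 points (exact permutation p = 0.1, adjusted p = 0.350 over 7 subunits). The V-ATPase share of UMIs in osteoclast-like cells was 1.22% ± 0.0464 in wild type and 1.31% ± 0.0312 in Nlrp3-/- (SD, n = 3 each), and the cathepsin share 0.394% ± 0.0437 in wild type and 0.506% ± 0.00419 in Nlrp3-/-. For both, every Nlrp3-/- value lay above every wild-type value, given here without a test. A share of all UMIs amounts to scaling by total UMIs, under which the median log2 difference was 0.21 over all genes, 0.15 over the V-ATPase genes and 0.31 over the cathepsins, with the V-ATPase median below that of all genes. The cathepsin share of other macrophages was likewise higher in every Nlrp3-/- library, at 1.20% ± 0.115 in wild type and 1.47% ± 0.162 in Nlrp3-/-, while their V-ATPase share overlapped between the genotypes. In the 2 named groups of clusters among them the cathepsin share overlapped between the genotypes, at 0.552% ± 0.0196 in wild type and 0.541% ± 0.0286 in Nlrp3-/- for macrophages with pro-inflammatory markers and 1.74% ± 0.171 in wild type and 1.95% ± 0.128 in Nlrp3-/- for those with anti-inflammatory markers. The latter, richer in cathepsins, held 710, 1457, 510, 1408, 477 and 1514 cells in the 6 libraries and the former 1353, 1278, 907, 592, 887 and 826 cells, and the part of this makeup in the difference was not tested. A further 6373 of the 18292 other macrophages lay in neither group, and their cathepsin share is not given. In all other macrophages the summed macrophage markers were 7364 to 7701 CPM in wild type and 8322 to 10213 CPM in Nlrp3-/-. The anti-inflammatory markers were at 5439 to 6338 and 7037 to 9223 CPM, the neutrophil markers at 1786 to 3428 and 1297 to 1506 CPM. The pro-inflammatory markers overlapped between the genotypes, and the part of these sums was not tested. The V-ATPase share was 1.99% ± 0.0656 in wild type and 2.23% ± 0.0310 in Nlrp3-/- for the Mmp9 Acp5 cluster, without overlap. The summed osteoclast markers in that cluster did not overlap either, at 22975 to 24693 CPM in wild type and 28017 to 33305 CPM in Nlrp3-/-. The V-ATPase share overlapped and had the lower mean in Nlrp3-/- in the others, with 0.843% ± 0.0490 in wild type and 0.821% ± 0.0480 in Nlrp3-/- for the Nfatc1 Jdp2 cluster and 0.847% ± 0.0330 in wild type and 0.837% ± 0.0504 in Nlrp3-/- for the dividing cluster. The cathepsin share was 0.433% ± 0.0704 in wild type and 0.645% ± 0.0502 in Nlrp3-/- for the dividing cluster, 0.438% ± 0.0848 in wild type and 0.502% ± 0.0824 in Nlrp3-/- for the Nfatc1 Jdp2 cluster, with overlap, and 0.319% ± 0.00964 in wild type and 0.356% ± 0.0404 in Nlrp3-/- for the Mmp9 Acp5 cluster. The summed osteoclast markers in all osteoclast-like cells were 8910 to 11201 CPM in wild type and 11305 to 13395 CPM in Nlrp3-/-, and the summed macrophage markers 1836 to 2511 CPM in wild type and 2653 to 2930 CPM in Nlrp3-/-, both without overlap. The Mmp9 Acp5 cluster held 48, 104, 63, 129, 91 and 180 cells in the 6 libraries, the Nfatc1 Jdp2 cluster 131, 207, 77, 135, 186 and 215 cells and the dividing cluster 78, 116, 85, 157, 105 and 197 cells. The part of these markers and of this makeup in the differences was not tested.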

How the data were processed

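The authors deposited raw count matrices of all barcodes, made with Cell Ranger (version 4 per the file headers, 2.1.1 per the submitters' notes) on mm10. Droplets with at least 500 UMIs were tested against the free RNA profile (droplets of at most 100 UMIs, 10000 simulated profiles, false discovery rate 0.01). Cells with under 200 genes or over 10% mitochondrial UMIs were removed. So were the cells with the highest doublet scores in each library, as many as an expected rate of 0.8% per 1000 cells gives. Cells were clustered with scanpy 1.11.5 (2000 variable genes, 30 components, Leiden resolution 1.0) without the 42 members, which also named no cluster. Clusters with over 75% of cells from 1 library and a low depth were set aside. The counts of each cell type were added up within each library, filtered with filterByExpr, scaled by TMM and tested with edgeR 4.0.16 (quasi-likelihood, Benjamini-Hochberg, threshold 0.05), with DESeq2 1.42.0 as an alternative. Types of the same library were compared with library as a term, genotypes without one. Limits for 0 UMIs cover counting error only, whereas SDs and standard errors include the spread between libraries. Every member was described, with values for those past the threshold at 20 CPM or more, and up to 3 leading genes of each list. Tfeb, Gnptab, M6pr and Igf2r were named after their values were seen. Members and lists were chosen with earlier results of these data known. The fits were tested on simulated data with 100 genes changed by a log2 value of 1 and 100 by 2. That of osteoclast-like cells against other macrophages (12583 genes) recovered 95% of genes changed by 1, with 26 false calls in all. That of genotype in osteoclast-like cells (10325 genes) recovered 80%, with 14 false calls. The changed genes were drawn from the better-counted ones and were far fewer than those called between the cell types, so low-count members are not covered.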

Additional observations from a re-analysis of the deposited data

How the results depend on the processing

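The comparison of osteoclast-like cells with other macrophages held under every of 22 alternatives for 26 of its 32 member calls, and Atp6v0a2, Ostm1, Ctsf, Ctse, Ctsa and Atp6ap1 each lost the call in at least 1. Where a direction turned, Ostm1 was at 0.11 (log2) without the dividing cluster and at 0.57 with the Mmp9 Acp5 cluster alone, Atp6ap1 at 0.26 with that cluster alone, and Ctsf at -0.32 against macrophages with anti-inflammatory markers, all alternatives chosen after seeing the data. Members lower than in neutrophils numbered 3 with Nlrp3-/- libraries only, and members lower in other macrophages than in mesenchymal cells 3 with no replicate block (library not a term). The V-ATPase share of UMIs in osteoclast-like cells was 1.39% with a minimum of 1000 UMIs. For these, the cause was not tested.

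The genotype counts depended most on the settings. In osteoclast-like cells 466 genes (4.51%) and 4 of 31 members were called by DESeq2 and 1195 genes (6.61%) and 4 of 38 members with no filter on low counts, and 0 members with the replicate block, no test against free RNA, doublets kept, a minimum of 1000 UMIs, Leiden resolution 2.0 or the 42 genes used in clustering. Leaving out 1 library gave 21 to 2653 genes and 0 to 12 members, the highest without wild type replicate 3. In other macrophages the gene counts were 451 (DESeq2), 376 (no filter), 30 (replicate block) and 23 to 2040 with 1 library left out, with 0 to 7 members. In neutrophils they were 256 (DESeq2, 1 member), 185 (no filter), 13 (replicate block), 89 (Leiden resolution 2.0) and 11 to 377 with 1 library left out, the highest without Nlrp3-/- replicate 1, with 0 members. In mesenchymal cells they were 268 (DESeq2), 5 (replicate block) and 7 to 534 with 1 library left out, with 0 to 1 members. The interaction gave 268 genes (1.27%) and 4 of 41 members (no filter), 33 genes (0.262%) and 1 of 33 members (DESeq2), 3 genes (the 42 genes used in clustering) and 1 to 44 genes and 0 to 2 members with 1 library left out. The cause was not tested. Same-numbered libraries of the 2 genotypes deviated with correlations of -0.57 to -0.0018 and none correlated best with its own number, so the numbers were not taken as pairs.

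The paralogue share differences were 69.0 to 70.4 points for Atp6v0d2 and 25.5 to 27.1 points for Tcirg1 with 1 library left out, where 5 pairs cannot go below an exact p of 0.0625. Near-zero differences changed sign or reached 0: the Atp6v1b2 share was at 0.0078 points (no test against free RNA), 0.0078 (doublets kept), 0.0073 (a minimum of 1000 UMIs), 0.0083 (Leiden resolution 2.0) and -0.0065 to 0 with 1 library left out, the Atp6v1c1 share, never below 0, at 0 (Leiden resolution 2.0) and 0 to 0.019, and the Atp6v1e1 share at -0.0053 to 0.0034. The genotype difference of Atp6ap1 in osteoclast-like cells ranged from -0.0044 to 0.12 and that of Ctsh in other macrophages from -0.013 to 0.13. Depth limits the low members: 0 UMIs in osteoclast-like cells allow 0.0969 CPM.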
